A study of Arabidopsis thaliana with 8 samples.

Results

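The comparison described here is that of dor mutant leaves with wild type leaves in plants that were watered throughout. It uses 4 of the 8 Affymetrix ATH1 arrays of the study, 2 labelled dor control and 2 labelled wild type control, chosen by these labels alone. The wild type was Columbia, and dor was a T-DNA insertion line in Columbia (Salk-050074). It is 1 insertion allele, and no second allele or complemented line was used here. All plants grew in soil at 22 degrees with 16 h of light and 8 h of dark. The control plants of both genotypes had 34 days of watering before rosette leaves were taken. The other 4 arrays hold leaves of both genotypes after 24 days of watering and 10 days with no irrigation, and they appear below only as a contrast. The question here is how dor leaves differ from wild type before any drought.

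DOR (AT2G31470) encodes an F-box protein. F-box proteins are the subunits of SCF ubiquitin ligases that choose which proteins are tagged for degradation. In Arabidopsis, DOR is known as a repressor of stomatal closure by abscisic acid, the hormone that rises when water is short, and its loss is known for better survival of drought. Stomata are the leaf pores through which water is lost, and each is bordered by a pair of guard cells.

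The 2 arrays of each genotype are labelled biological replicates, without saying whether plants were pooled. Wild type and dor arrays with the same replicate number are called pair 1 and pair 2, and each difference was taken within a pair. Array features moved with the pair, and in pair 2 they also differed between the genotypes. The median signal was 97.4 (wild type) and 102.4 (dor) in pair 1 and 168.7 and 163.4 in pair 2. The geometric mean of the poly-A spike-in signals, from bacterial RNAs added before labelling, was 435.6 and 447.2 in pair 1 but 16.3 and 58.8 in pair 2. The actin 5 prime to 3 prime signal ratio, which drops as RNA is broken or copied short, was 0.229 and 0.245 in pair 1 and 0.575 and 0.366 in pair 2. The extraction label names the RNAplant reagent for dor 1 and wild type 2 and not for the other two, so it differs within each pair and in opposite directions. The part of these features in the results was not tested, apart from a fit with the extraction wording as a covariate.

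No probe set passed the test between watered dor and watered wild type. In limma 0 of 15523 tested probe sets were higher and 0 lower in dor at an adjusted p under 0.05 (0% of those tested). An unadjusted p under 0.05 was reached by 435 probe sets (2.8%), against 776 that a threshold of 0.05 gives by chance. The smallest adjusted p over all tested probe sets was 0.999, which is also the adjusted p in limma of every tested gene named below. All watered differences that follow are therefore descriptions of 4 arrays, and the words higher and lower refer to the arrays measured. Differences are dor minus wild type in log2 units of signal, where 1 unit is a 2-fold ratio. Each mean has the standard error of the limma fit (n = 2 arrays per genotype in each condition). That fit takes its spread from the watered and drought arrays together, so the standard error does not describe the watered arrays alone. The standard error of PRK, described below, was 0.64, with watered pairs at 0.26 and 0.04 and drought pairs at -3.39 and -0.67.

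The 2 pairs did not show the same differences. Across the 15523 tested probe sets the difference in pair 1 correlated with that in pair 2 at r = 0.010, and across the 11364 probe sets that reached their array's 40th percentile on all 4 watered arrays at r = 0.014. These are values across probe sets of the same 4 arrays, which are not independent. Under drought the corresponding correlation of the pairs was 0.262. Pair 1 was the closer match: its log2 signals correlated at 0.940, those of pair 2 at 0.854, and those of a genotype with itself across pairs at 0.777 (wild type) and 0.775 (dor). Among the 11364 probe sets, 231 (2.03%) differed by at least 1 log2 unit in pair 1 and 1815 (16.0%) in pair 2. Differences of at least 4 units numbered 0 in pair 1 and 24 in pair 2. Differences of at least 1 unit in both pairs were rare in either direction, with 154 of 15523 probe sets higher in dor (0.992%) and 141 lower (0.908%).

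**Figure D1:**
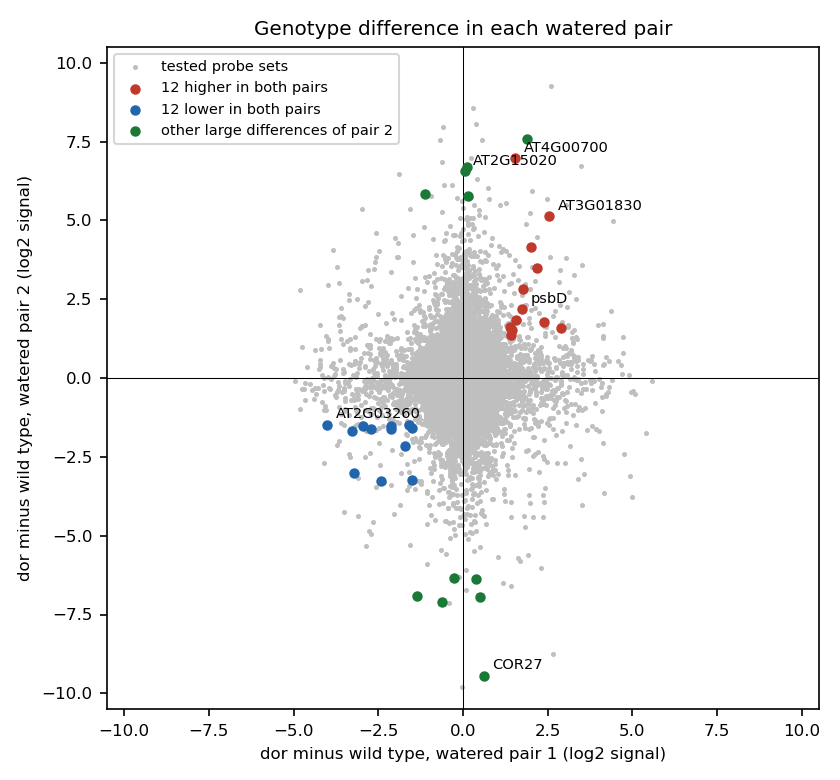
Each point is 1 tested probe set, with its dor minus wild type difference in log2 signal in watered pair 1 on the horizontal axis and in pair 2 on the vertical axis. Coloured points are the 12 genes higher in both pairs, the 12 lower in both pairs and other genes with large differences in pair 2, and the cloud has no slope (r = 0.010).

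The dependence on pairs also showed when 1 array was left out. Without wild type 1 or without dor 1 the watered contrast rests on pair 2, and limma then called 7 probe sets, 6 higher and 1 lower. The contrast is then 1 dor array against 1 wild type array, with 1 residual degree of freedom and a spread that comes from the drought arrays alone, so these calls have no replicate check in watered plants. Without an array of pair 2 it rests on pair 1, and there were 0 calls, with 468 (without dor 2) or 464 (without wild type 2) probe sets at an unadjusted p under 0.05. Of the 7 probe sets, 2 have a named gene. AT4G00700 read 39.3 in wild type and 114.6 in dor in pair 1, and 7.4 and 936.3 in pair 2. AT2G15020 read 2955.2 and 3087.2 in pair 1, and 21.7 and 2059.9 in pair 2. AT4G00700 was thus higher in dor in both pairs, whereas AT2G15020 was set apart by the low signal of wild type 2 alone.

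Of genes higher in dor in both pairs, the 12 with the largest smaller difference were listed, given that both dor arrays reached the 40th percentile of their array (59.5 to 89.4 on the 4 arrays). In 11 of the 12 both dor arrays lay above both wild type arrays, as they did in 7.57% of all tested probe sets. The rule itself favours such genes, and of the 154 probe sets at least 1 unit higher in both pairs 110 (71.4%) were placed in this way, so nothing is read from this count. In 10 of the 12 only the 2 dor arrays reached the 40th percentile, so that the size of the difference depends on background. The mean differences ran from 1.40 to 4.26, and from 0.19 to 2.17 with every signal under the 40th percentile raised to it. Where both signals of a pair are raised, the difference is that of the 2 percentiles and says nothing of the gene. It is then 0.11 in pair 1 and -0.08 in pair 2 (mean 0.02), and 0.05 and 0.06 in the drought pairs. The probe and gene tables used here give no function for 11 of these 12 loci, which are therefore given by locus only.

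AT4G00700 had the largest mean difference of the 12, 4.26 ± 1.17 (1.54 in pair 1 and 6.98 in pair 2), or 2.17 with raised signals. AT3G01830 read 12.7 in wild type and 74.6 in dor in pair 1 and 9.7 and 338.8 in pair 2. Its mean difference was 3.84 ± 1.23, or 1.12 with raised signals. Both loci were low in both wild type arrays and clearly higher in dor 2 than in dor 1. AT4G29780 read 19.1 and 100.6 in pair 1 and 88.5 and 304.6 in pair 2, with a mean difference of 2.09 ± 0.48. AT2G41640 read 32.1 and 95.2 in pair 1 and 53.2 and 191.9 in pair 2, with a mean difference of 1.71 ± 0.37. For these 2 loci the pairs were alike in size, with differences of 2.40 and 1.78 for AT4G29780 and of 1.57 and 1.85 for AT2G41640. With raised signals the differences were 0.76 and 1.77 for AT4G29780 and 0.68 and 1.10 for AT2G41640, so the likeness rests partly on dim wild type signals. AT1G69480 differed by 2.23 ± 0.55, but its dor signals were only 72.8 and 95.7, and the difference with raised signals was 0.19. AT3G03230 (2.84 ± 1.12), AT5G19810 (2.30 ± 1.38) and AT2G16980 (1.40 ± 0.86) likewise had dor signals between 79.4 and 98.0 and raised differences of 0.30, 0.30 and 0.19. AT1G43590, listed as a pseudogene in the gene table, differed by 1.51 ± 0.62.

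**Figure D2:**
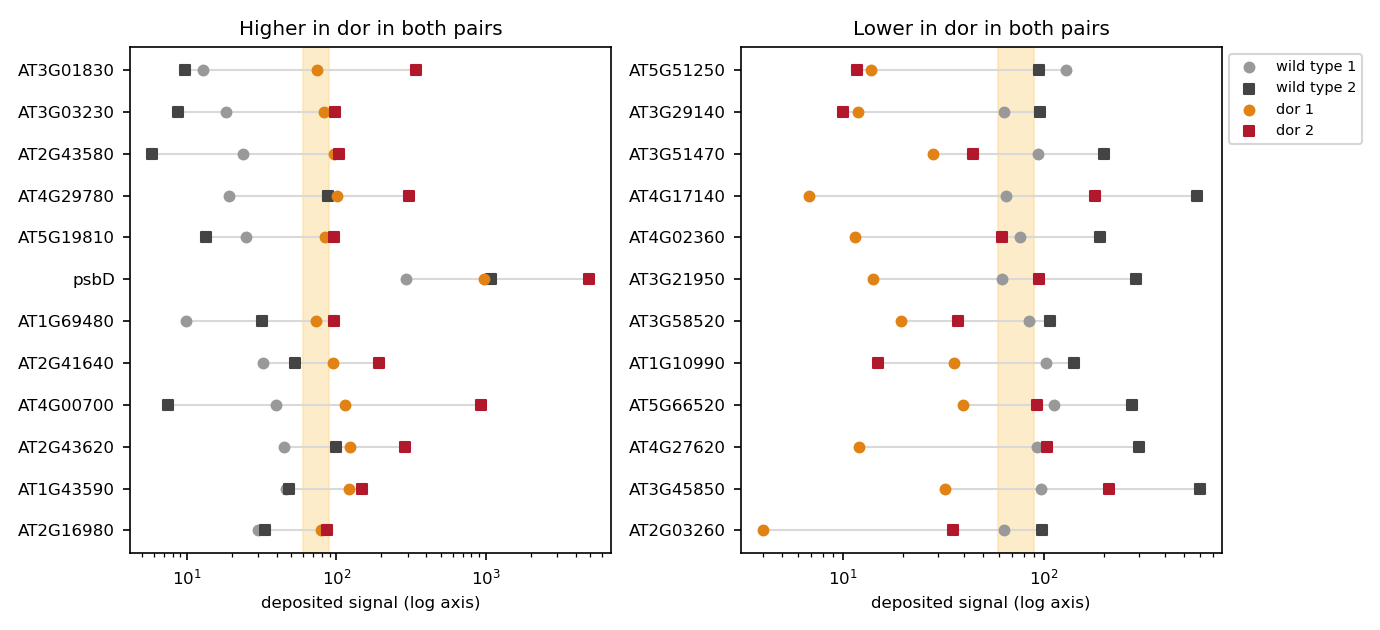
The deposited signal of each of the 4 watered arrays (log axis) is drawn for the 12 genes higher in dor in both pairs (left) and the 12 lower in both pairs (right), with the 40th percentiles of the 4 arrays (59.5 to 89.4) as a shaded band. Most of the lower signals lie below the band, and psbD is the 1 gene of the left panel with all 4 arrays above it.

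Part of the higher group lies near a chitinase gene. CHI (AT2G43570) is annotated as a putative chitinase, an enzyme that cuts the chitin of fungal walls, and was chosen with its values known. CHI gave a signal of 155.6 in wild type and 374.2 in dor in pair 1 and 69.7 and 3266.0 in pair 2. Both dor arrays were above both wild type arrays, as in 7.57% of all tested probe sets. The mean difference of CHI was 3.41 ± 1.00 (1.27 in pair 1 and 5.55 in pair 2). AT2G43580, the next locus in the gene table, read 23.8 and 96.7 in pair 1 and 5.8 and 103.9 in pair 2, a mean difference of 3.09 ± 1.48 that came to 0.46 with raised signals. AT2G43620, further along, read 44.9 and 122.5 in pair 1 and 99.4 and 286.0 in pair 2, a mean difference of 1.49 ± 0.62 and 1.28 with raised signals. Not every locus between them behaved in this way. AT2G43590 read 726.9 and 407.3 in pair 1 and 277.4 and 388.2 in pair 2, so its pairs had opposite signs, and AT2G43600 and AT2G43610 were too dim to be tested. Cross-hybridisation between these adjacent loci was not tested. AT2G43550, on the other side of CHI, read 2583.6 and 2494.4 in pair 1 and 8328.3 and 814.4 in pair 2.

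The plastid genome supplied the 1 gene of the 12 that was bright on every array. psbD, which encodes the D2 reaction centre protein of photosystem II, read 291.8 in wild type and 979.4 in dor in pair 1 and 1084.6 and 4909.8 in pair 2. The mean difference was 1.96 ± 0.42 (1.75 and 2.18), although dor 1 lay below wild type 2, so the genotypes overlap across pairs. psbC, which encodes the CP43 antenna protein of the same photosystem, read 1602.3 and 2501.9 in pair 1 and 3370.2 and 13090.4 in pair 2 (1.30 ± 0.46). psbA, the gene of the D1 protein, read 9670.1 and 29262.6 in pair 1 and 11463.0 and 18814.3 in pair 2 (1.16 ± 0.41). psbB, the gene of the CP47 antenna protein, read 815.7 and 5303.2 in pair 1 and 2877.8 and 4370.6 in pair 2 (1.65 ± 0.67). For psbA and psbB both dor arrays were above both wild type arrays, as they were in 7.57% of all tested probe sets, so nothing is read from this. These genes were picked after their values were seen, apart from psbD. Other plastid genes named psb did not share 1 direction. psbK (0.53 ± 0.46) and psbN (0.90 ± 0.54) were higher in both pairs. psbE (-0.19 ± 0.32), psbF (-0.19 ± 0.33), psbJ (-0.27 ± 0.33) and psbL (-0.09 ± 0.30) were lower in both pairs. psbH, psbI, psbT and psbZ had opposite signs, and psbM is given below.

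Other plastid genes with a mean difference of at least 1 unit were petN, psaA, ycf4, rps14 and ndhG. psaA, which encodes a core protein of photosystem I, read 233.7 and 541.5 in pair 1 and 9221.3 and 18029.6 in pair 2 (1.09 ± 0.44), so that the step between the pairs was far larger than that between the genotypes. petN, which encodes a small subunit of the cytochrome b6f complex, read 220.9 and 564.7 in pair 1 and 461.4 and 1089.7 in pair 2 (1.30 ± 0.57). ycf4, the gene of a photosystem I assembly factor, read 2024.5 and 10497.4 in pair 1 and 2989.8 and 3621.3 in pair 2 (1.33 ± 0.60). The ribosomal protein gene rps14 (2.90 in pair 1 and -0.21 in pair 2) and ndhG (2.67 and -0.50), of the NDH complex, had opposite signs. The 2.90 of rps14 rests on signals of 5.4 and 40.4 and is 0.11 with raised signals. psbM, the gene of a small photosystem II subunit, went the other way at 51401.3 and 28569.1 in pair 1 and 33468.6 and 21593.5 in pair 2 (-0.74 ± 0.35). Both its dor arrays were below both wild type arrays, as in 7.47% of all tested probe sets. Over the 69 tested plastid-encoded genes 27 were higher and 14 lower in dor in both pairs, with median differences of 0.20 in pair 1 and 0.11 in pair 2. Over all 8368 tested genes 2009 were higher in both pairs (24%) and 2208 lower (26.4%), with medians of 0.02 and -0.06. The part of the spike-in and actin values given above in these plastid signals was not tested.

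Nuclear photosynthesis genes were bright and close between genotypes. Of the 7 tested photosystem and antenna genes 6 were higher in dor in both pairs and 0 lower, by medians of only 0.14 and 0.20. LHCB4.2, an antenna protein of photosystem II, read 40707.5 and 53132.7 in pair 1 and 17283.8 and 28473.1 in pair 2 (0.55 ± 0.57). LHCB4.3, of the same antenna family, read 5152.1 and 6091.9 in pair 1 and 1874.1 and 2495.1 in pair 2 (0.33 ± 0.32). In both genes the pairs differed more than the genotypes. Among 4 Calvin cycle genes, SBPASE and PRK, enzymes that regenerate the carbon dioxide acceptor, were higher in both pairs with differences of 0.14 ± 0.46 and 0.15 ± 0.64. These lists also serve as markers of leaf, the labelled tissue, and the lowest of their signals among the 7 photosystem genes was 1874.1. The root marker list had 1 member with a named probe set and 0 tested, and the flower and seed marker lists had 0 members with one.

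The genes lower in dor in both pairs were mostly dim. The 12 with the largest smaller difference, given that both wild type arrays reached the 40th percentile, had mean differences between -3.12 and -1.54, or -1.20 to -0.09 with raised signals. In 8 of the 12 both dor arrays lay below both wild type arrays, compared with 7.47% of all tested probe sets and, again through the rule, 82 (58.2%) of the 141 at least 1 unit lower in both pairs. In 7 of the 12 only 2 arrays reached the 40th percentile. AT5G51250 read 129.6 in wild type and 13.8 in dor in pair 1 and 95.3 and 11.8 in pair 2, a mean difference of -3.12 ± 1.10 that came to -0.59 with raised signals. AT3G29140 read 63.8 and 11.9 in pair 1 and 96.4 and 10.0 in pair 2, with a mean difference of -2.85 ± 0.70 but -0.09 with raised signals. The size of these 2 differences thus rests almost wholly on signals in the background range.

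Others were brighter in wild type 2. AT4G17140 read 65.3 and 6.8 in pair 1 and 581.3 and 181.3 in pair 2 (-2.47 ± 0.58). AT3G45850 read 97.4 and 32.2 in pair 1 and 598.7 and 211.2 in pair 2 (-1.55 ± 0.53). AT5G66520 read 113.4 and 39.9 in pair 1 and 275.5 and 92.6 in pair 2 (-1.54 ± 0.69). With raised signals these 3 were -0.85, -1.05 and -1.20, the last being the largest of the 12. AT4G02360 read 76.2 and 11.6 in pair 1 and 190.4 and 62.3 in pair 2 (-2.16 ± 0.59). The rest were AT3G51470 (-1.94 ± 1.09), AT3G21950 (-1.87 ± 0.89), AT3G58520 (-1.81 ± 0.99), AT1G10990 (-2.37 ± 1.11), AT4G27620 (-2.22 ± 0.59) and AT2G03260 (-2.74 ± 1.04). No function is given for any of the 12 in the tables used here.

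Several cold and drought responsive genes, mostly chosen after their values were seen, were highest on wild type 2. COR15A and COR15B encode chloroplast proteins that protect membranes in the cold. COR15A read 2229.0 in wild type and 3273.7 in dor in pair 1 and 11241.4 and 615.0 in pair 2. COR15B read 1044.7 and 718.1 in pair 1 and 8674.0 and 372.1 in pair 2. COR47, a dehydrin, read 605.7 and 663.1 in pair 1 and 5929.6 and 1162.5 in pair 2. For these 3 genes wild type 2 was the highest of the 4 arrays. The differences were 0.55, -0.54 and 0.13 in pair 1 and -4.19, -4.54 and -2.35 in pair 2, in the order given.

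The same array stood out for further genes. COR27, a cold regulated gene that also acts on the circadian clock, read 2.4 and 3.7 in pair 1 and 2365.8 and 3.4 in pair 2. GI, a clock and flowering time gene whose transcript peaks late in the day, read 95.0 and 127.9 in pair 1 and 1746.6 and 192.5 in pair 2. AT4G33980 read 9.2 and 13.0 in pair 1 and 1058.0 and 8.5 in pair 2, and AT4G30650 read 475.6 and 623.1 in pair 1 and 11035.4 and 132.8 in pair 2. In each of these 4 genes wild type 2 was the single high array, and pair 1 differed by 0.62, 0.43, 0.50 and 0.39. AT5G62360 (5338.6 against 65.6), AT1G16850 (420.9 against 3.1) and AT2G23910 (349.4 against 2.9) were also far higher in wild type 2 than in dor 2, with pair 1 differences of -0.26, -0.61 and -1.37. Wild type 2 also had the lowest spike-in mean (16.3) and the highest actin ratio (0.575) of the 4 arrays, and the part of these in the values was not tested.

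Over the 9 tested drought and abscisic acid effector genes, which encode dehydrins and other protective proteins, the median difference was 0.55 in pair 1 and -2.35 in pair 2. These medians take in dim signals. With raised signals the pair 2 differences of the members LEA4-5, LEA18, AT3G02480 and AT3G17520 were each -0.08, the value set by the percentiles alone. Only LEA4-5, a late embryogenesis abundant protein gene, was higher in dor in both pairs, at 88.5 and 161.2 in pair 1 and 19.2 and 63.1 in pair 2 (1.29 ± 1.12). With raised signals its mean difference was 0.39, from 0.87 in pair 1 and -0.08 in pair 2. AT3G02480, of the same list, was high on dor 1 alone, at 5.7 and 240.8 in pair 1 and 7.1 and 2.1 in pair 2. The dehydrin gene LTI30 read 199.5 and 243.2 in pair 1 and 670.6 and 303.3 in pair 2 (-0.43 ± 0.52). HIS1-3, a drought induced linker histone, read 8.6 and 8.5 in pair 1 and 304.6 and 77.9 in pair 2 (-0.99 ± 0.61). For this list 1 gene was higher and 2 were lower in both pairs, and the other 6 changed sign between them. Among these 6, LEA18 and AT3G17520 had 0 watered signals at or above the 40th percentile, so their signs rest on background.

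**Figure D3:**
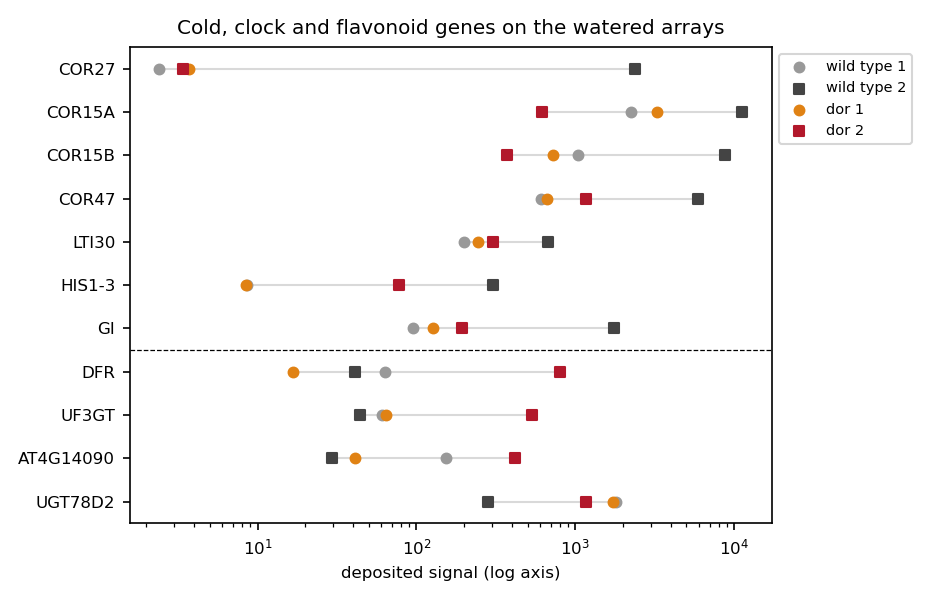
Deposited signals (log axis) of cold, drought and clock genes (above the dashed line) and of flavonoid genes (below it) are drawn for the 4 watered arrays. Wild type 2 is the highest array for all 7 genes above the line, and dor 2 is the highest for DFR, UF3GT and AT4G14090.

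Flavonoid and anthocyanin genes, whose products are the red pigments and sunscreens of leaves, had their largest differences in pair 2, and DFR and AT4G14090 had the opposite sign in pair 1 (-1.93 and -1.91). With raised signals these pair 1 differences were 0.02 for DFR and -1.25 for AT4G14090. DFR, dihydroflavonol reductase, read 63.3 in wild type and 16.6 in dor in pair 1 and 41.0 and 805.0 in pair 2 (1.18 ± 1.92). UF3GT, a glycosyltransferase of anthocyanins, read 60.9 and 64.0 in pair 1 and 44.3 and 536.8 in pair 2 (1.84 ± 2.42). AT4G14090, listed here with the anthocyanin genes, read 153.4 and 40.9 in pair 1 and 29.4 and 418.9 in pair 2 (0.96 ± 1.56). Dor 2 was the highest of the 4 arrays for these 3 genes. UGT78D2, a flavonoid glucosyltransferase, read 1803.0 and 1723.2 in pair 1 and 283.4 and 1168.4 in pair 2 (0.99 ± 0.56), with wild type 2 as the low array. Over the 5 tested members the median was -0.07 in pair 1 and 3.60 in pair 2.

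Further genes higher in dor 2 than in wild type 2 were chosen after their values were seen. AT3G13610, named F6'H1 in the gene table and known for the synthesis of coumarins, read 6.4 and 23.5 in pair 1 and 2.9 and 553.6 in pair 2 (4.73 ± 2.07). AT2G41250 read 2262.3 and 2512.4 in pair 1 and 114.2 and 6234.2 in pair 2 (2.96 ± 1.20). AT1G13340 read 61.3 and 67.3 in pair 1 and 3.0 and 312.9 in pair 2 (3.42 ± 1.46). AT1G26420 had opposite signs, with -1.11 in pair 1 and 5.85 in pair 2. Of these loci only AT3G13610 differed by more than 1 unit in the same direction in both pairs, and 1 of its 4 signals reached the 40th percentile.

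The tested members of the lists of defence genes and of cold and touch regulators were few. All 3 were higher in dor in both pairs, as were 24% of all tested genes. STZ, a zinc finger repressor induced by cold, salt and touch, read 197.5 in wild type and 413.7 in dor in pair 1 and 269.2 and 749.3 in pair 2. Both dor arrays were above both wild type arrays, as in 7.57% of all tested probe sets, with a mean difference of 1.27 ± 0.42. WRKY53, a transcription factor of defence and leaf senescence, read 91.2 and 182.6 in pair 1 and 173.7 and 754.5 in pair 2 (1.56 ± 0.49). Its 4 signals all reached the 40th percentile, and the dor arrays were again the 2 highest. SAG101, a partner of the immune regulator EDS1, read 34.5 and 68.7 in pair 1 and 181.7 and 236.0 in pair 2 (0.69 ± 0.42). WRKY53 and SAG101 are the 2 tested members of the 23 salicylic acid and defence genes listed, and STZ is the 1 tested of 17 cold and touch regulators, so these values say nothing of the whole lists. The senescence list had 2 tested members, of which WRKY6, a transcription factor, had opposite signs (0.47 in pair 1 and -0.03 in pair 2). SAG29, a sugar transporter of senescing leaves, read only 5.5 and 17.2 in pair 1 and 4.5 and 10.6 in pair 2.

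Abscisic acid genes could hardly be followed. Of 16 genes of its synthesis and turnover 2 were tested, and of 31 genes of its perception and signalling 0 have a named probe set. UGT71B6, which attaches glucose to abscisic acid, read 10.3 and 19.4 in pair 1 and 37.4 and 74.8 in pair 2 (0.96 ± 0.47). It was higher in dor in each pair, but all 4 signals were below the 40th percentile, and with raised signals the difference was 0.02. BGLU33, the other tested member, read 485.2 and 293.1 in pair 1 and 962.8 and 1432.5 in pair 2, with opposite signs (-0.73 and 0.57). Guard cell genes gave 3 tested members of 20. CHX20, an ion exchanger of guard cells, read 421.3 and 431.9 in pair 1 and 454.2 and 552.2 in pair 2 (0.16 ± 0.32). FMA, a transcription factor that ends stomatal cell division, read 153.0 and 211.0 in pair 1 and 476.5 and 451.8 in pair 2 (0.19 ± 0.35). AT1G22690 read 7790.8 and 7166.6 in pair 1 and 2331.1 and 1571.2 in pair 2 (-0.34 ± 0.32). None of the 3 differed by more than 0.57 in either pair. In whole leaves, fewer cells of a type and less RNA per cell cannot be told apart.

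Cell wall and auxin genes showed no common direction. Of 11 tested expansin and xyloglucan enzyme genes, whose products loosen or remodel cell walls, 1 was higher and 4 were lower in dor in both pairs, with medians of 0.05 and -0.52. EXLA1, an expansin-like gene, read 713.6 and 559.3 in pair 1 and 249.3 and 59.0 in pair 2 (-1.22 ± 0.48). XTH16, a xyloglucan enzyme gene, read 308.4 and 173.9 in pair 1 and 199.8 and 35.3 in pair 2 (-1.66 ± 1.04). Both its dor arrays were below both wild type arrays, as in 7.47% of all tested probe sets. Of 3 auxin response genes 2 were higher in both pairs. GH3.3, which conjugates auxin to amino acids, read 7.1 and 15.3 in pair 1 and 35.1 and 178.6 in pair 2 (1.73 ± 0.76). Only 1 of these signals reached the 40th percentile, and with raised signals the pairs differed by 0.11 and 1.00. IAA29, an auxin signalling repressor, read 143.0 and 154.5 in pair 1 and 127.4 and 219.9 in pair 2 (0.45 ± 0.81).

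The jasmonate, heat shock, glucosinolate and iron lists had 3 tested members each. Jasmonate and wounding genes had medians of -0.53 in pair 1 and 1.21 in pair 2. PDF1.2, a defensin, read 10337.6 and 7139.5 in pair 1 and 6091.0 and 14081.9 in pair 2, and JMT, which methylates jasmonate, read 422.4 and 293.2 in pair 1 and 79.4 and 281.6 in pair 2. Both genes were lower in dor in pair 1 and higher in pair 2. THI2.1, a thionin, was the 1 member with the same sign in both pairs (0.24 ± 0.64). Heat shock, glucosinolate and iron genes had medians within 0.29 of 0 in either pair. Their members UGT74B1 (-0.26 ± 0.32), PYE (-0.10 ± 0.32) and AT1G47400 (0.37 ± 0.48) were close to no difference, while the dim heat shock gene AT5G51440 (1.31 ± 1.52) was uncertain.

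**Figure D4:**
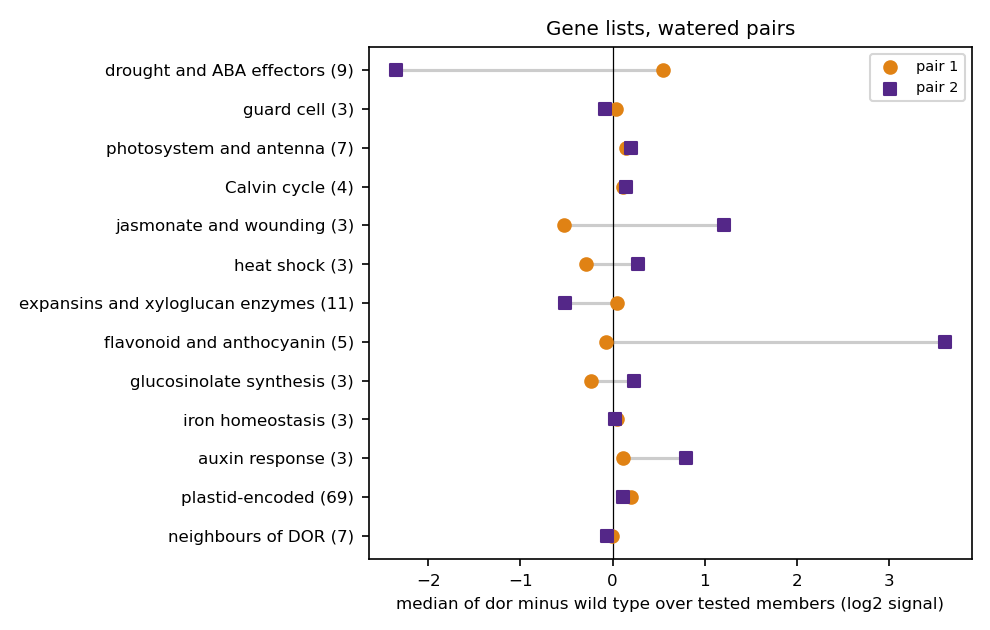
For each gene list with at least 3 tested members (number in brackets) the median dor minus wild type difference in log2 signal is drawn for watered pair 1 and pair 2. The pairs lie close together for the photosystem (0.14 and 0.20), Calvin cycle (0.11 and 0.14) and plastid lists and far apart for the effector (0.55 and -2.35) and flavonoid (-0.07 and 3.60) lists. Dim signals were not raised in these medians.

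DOR itself could not be used to check the genotype. Its probe set read 7.0 in wild type and 3.7 in dor in pair 1 and 5.0 and 21.4 in pair 2, all under the 40th percentile, so it was not tested. The 30 loci on both sides of it in the gene table had 7 tested genes, of which 2 were higher and 3 lower in dor in both pairs. AT2G31490, a locus close by, read 3820.4 and 3789.3 in pair 1 and 2958.0 and 2832.5 in pair 2. AT2G31410 differed by -0.40 ± 0.37 and AT2G31370 by 0.48 ± 0.39, the largest shared differences among them. No tested neighbour differed by more than 0.82 in either pair. Of 13 SCF subunit genes 1 was tested, SK18, a member of the SKP1 family that links F-box proteins to the ligase (-0.11 ± 0.35).

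The drought arrays offer a contrast that shares no array with the watered ones. Their array features, however, split within the pairs in a similar way. The spike-in mean was 339.4 (wild type) and 337.1 (dor) in drought pair 1 and 26.1 and 104.4 in drought pair 2. The actin ratio was 0.389 and 0.37 in drought pair 1 and 0.497 and 0.382 in drought pair 2. The extraction label again names RNAplant for dor 1 and wild type 2 only. The part of these features in differences shared by both conditions was not tested. No probe set passed the test of whether the genotype difference differed between watered and droughted plants, with 0 calls in limma, 885 probe sets at an unadjusted p under 0.05 and a smallest adjusted p of 0.856. Of the 154 probe sets at least 1 unit higher in dor in both watered pairs, 85 (55.2%) were higher in dor in both drought pairs, compared with 29% of all tested probe sets. Of the 141 that were lower, 30 (21.3%) were lower in both drought pairs, compared with 29.7%. No test was made of these shares.

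Among the 12 named genes higher in watered dor, 7 were also higher in dor in both drought pairs, 0 lower in both and 5 mixed. AT3G01830 differed by 2.23 and 6.62 in the drought pairs, AT4G00700 by 2.85 and 2.33, and AT2G43620 by 3.92 and 1.69. The 6.62 of AT3G01830 rests on a wild type signal of 1.4 in drought pair 2, far under the 40th percentile, and is 0.66 with raised signals. AT2G16980, also among the 7, differed by 1.75 and 1.66, but by only 0.05 and 0.06 with raised signals. CHI differed by 3.91 and 2.11 under drought, at 1585.5 in wild type and 23907.6 in dor in drought pair 1 and 1441.2 and 6208.9 in drought pair 2. STZ was higher by 0.78 and 2.17, whereas WRKY53 had opposite signs (-0.17 and 1.23) and SAG101 was lower in both drought pairs (-0.28 and -0.19). psbD had opposite signs under drought, at -0.47 and 0.94. Among the 12 lower genes 4 were lower in both drought pairs, 3 higher in both and 5 mixed. AT3G45850 differed by -1.66 and -0.89 and AT2G03260 by -2.47 and -1.50, but with raised signals by 0.05 and -0.55 and by -0.33 and 0.06. AT1G10990 (-0.13 and -3.25) and AT5G66520 (-0.05 and -1.58) were also lower in both drought pairs. With raised signals they differed by 0.05 and 0.06 and by 0.05 and -0.06. By contrast, AT4G02360 was higher by 2.66 and 0.70. The watered minus drought contrast of AT4G02360 was -3.84 ± 0.83, and it did not pass the adjustment (adjusted p = 0.856 in limma).

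**Figure D5:**
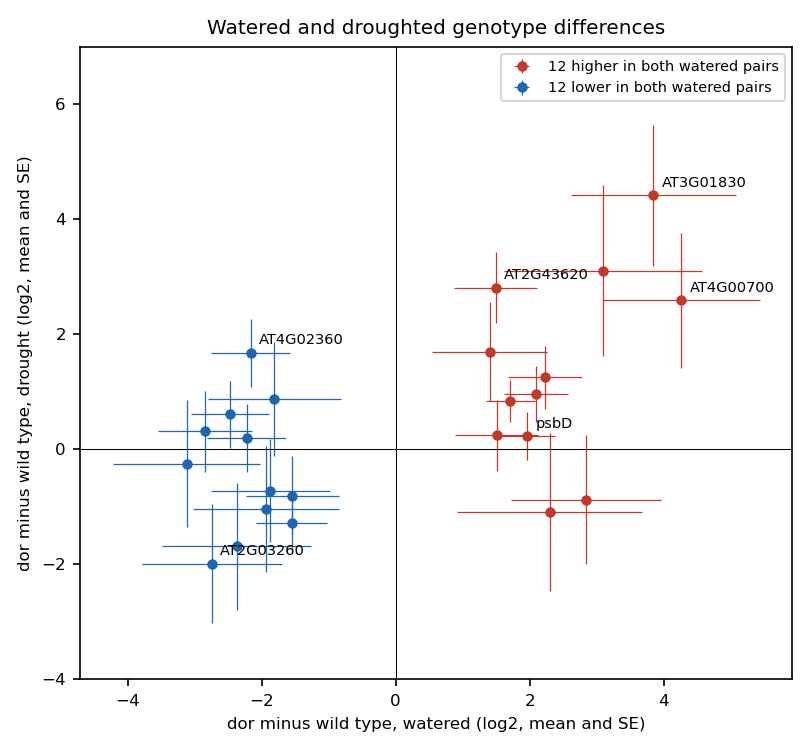
The mean dor minus wild type difference in log2 signal of the 24 named genes is drawn for watered plants (horizontal axis) and droughted plants (vertical axis). Bars are 1 standard error of the limma fit (n = 2 arrays per genotype in each condition), whose spread comes from both conditions together. Of the 12 genes on the right, 7 were higher in both drought pairs, while the 12 on the left lie on both sides of 0. Dim signals were not raised in this figure.

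List medians differed between the conditions. The effector list had median differences of 4.46 and 1.29 in the drought pairs, beside 0.55 and -2.35 in the watered ones. Part of this list was tested only through its drought signals. LEA18 and AT3G17520 had 0 watered signals at or above the 40th percentile, and HIS1-3 and AT3G02480 had 1 each. The watered medians of this list thus take in signals near background. The photosystem list had -1.65 and -0.46 under drought, beside 0.14 and 0.20, and the Calvin cycle list -2.24 and -0.86, beside 0.11 and 0.14. COR15A, at 4.46 and 1.51 under drought, was higher in dor in both drought pairs, while its watered pairs had opposite signs. These list differences between conditions were given no test of their own.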

How the data were processed

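The authors deposited 1 linear signal intensity per probe set and array, made with GCOS and MAS5 per the submitters' processing notes, versions not stated, and the deposited values of every array have the same trimmed mean of 500 (2% cut at each end). No build or detection call was used here, and 0 columns were left unmapped. Signals under 1 were set to 1 (399 values, 3 of them in tested probe sets) before log2. Of 22810 probe sets, 64 controls were left out, and 15523 that reached their array's 40th percentile on at least 2 of 8 arrays were tested, of which 8495 stand for 1 gene. Over all probe sets, 13513 have 1 gene in the probe table, 503 have several and 8730 are unlisted. Of the 13513, 13436 matched the RefSeq gene table (TAIR10.1), which gave names and gene order but no coordinates.

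limma 3.58.1 in R 4.3.3 (lmFit and eBayes with intensity trend, two-sided, Benjamini-Hochberg over all tested probe sets) fitted all 8 arrays, with condition and replicate number as a fixed block, which leaves 2 residual degrees of freedom. The 4 arrays that are compared limit the precision of every value. The block was used because same-numbered arrays deviated together: the replicate 2 minus replicate 1 difference correlated at 0.594 between genotypes over the tested probe sets. The numbers come from the sample titles, which do not say what they share. The p-values rest on how far the genotype difference of these arrays varied between the 2 pairs of a condition, over both conditions. limma also draws this spread towards that of other probe sets of like signal.

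The genes higher or lower in both pairs were taken by the smaller of their 2 differences, 12 each way, and up to 2 per list by the same measure. DOR and NCED3 were to be named always, but NCED3 has no probe set under its own name in the probe table and is not analysed here. Plastid genes were taken by chromosome, since the gene table does not use the planned locus prefix. CHI, the genes with large differences in pair 2, several list members and the unlisted probe sets were added after their values were seen. Raising dim signals was also applied to the drought pairs after the data were seen. The comparison, lists and rules were chosen with earlier results of these data known. For a gene with several probe sets the lists use the brightest. Alternatives were other blocks, samples, normalizations, offsets, filters and variance trends, and leaving out each watered array. The main fit was tested on data simulated from its own spread, with 50 probe sets changed at each of 4 sizes. It called 0% of the changes of 1 log2 unit, 0% of those of 2, 52% of those of 4 and 94% of those of 8. There were 7 false calls. The 0 calls in the data thus say little of differences of 2 units or less. Tables and plots used Python 3.11.15, pandas 2.3.3 and matplotlib 3.10.9.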

Additional observations from a re-analysis of the deposited data

How the results depend on the processing

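The count of calls between watered dor and wild type was 0 in limma with the fixed replicate block (435 probe sets at an unadjusted p under 0.05), 0 without a replicate block (71), and 0 with the block as a random term (626). It was also 0 with only the 4 watered arrays (483), with the extraction wording as a covariate (541), after quantile normalization (446), median centring (425) or an offset (434), with no filter (817), with the 60th percentile filter (257) and without the trend (457). With 1 watered array left out it ran from 0 to 7, the 7 calls coming without either array of pair 1 while the block was kept. The calls of the watered minus drought contrast were 0 in every setting run, with between 185 (no replicate block) and 1265 (no filter) probe sets at an unadjusted p under 0.05 when no array was left out. That contrast has no value with only the watered arrays. AT4G00700 and AT2G15020 passed the threshold without an array of pair 1. Of 80 named probe sets, 0 changed sign in a setting that kept all arrays, and 32 did so with 1 watered array left out, since the contrast then rests on 1 pair or on unpaired arrays. With 1 watered array left out, the difference ran over these ranges: -1.44 to 0.75 for AT1G22690, -1.11 to 5.85 for AT1G26420, -1.20 to 1.94 for AT1G47400, -0.23 to 6.86 for AT2G15020, -0.21 to 1.16 for AT2G31370, -0.92 to 0.11 for AT2G31410, -1.91 to 3.83 for AT4G14090 and -6.38 to 0.39 for AT4G30650. It ran from -6.96 to 0.50 for AT4G33980, -0.90 to 3.53 for AT5G51440, -0.02 to 0.34 for CHX20, -4.19 to 0.55 for COR15A, -9.44 to 0.62 for COR27, -2.76 to 0.54 for COR47, -1.93 to 4.30 for DFR and -2.84 to 0.41 for EXLA1. Values ran from -0.05 to 3.50 for GH3.3, -3.48 to 0.72 for GI, -3.57 to 1.58 for HIS1-3, -0.07 to 1.17 for LHCB4.2, -0.40 to 1.06 for LHCB4.3, -1.30 to 0.45 for LTI30, -0.16 to 0.46 for PRK and -0.52 to 0.32 for PYE. The last ones ran from -0.51 to 1.88 for SAG101, -0.38 to 0.67 for SBPASE, -0.51 to 0.29 for SK18, -0.62 to 1.10 for THI2.1, -0.02 to 1.93 for UGT71B6, -0.76 to 0.24 for UGT74B1, -0.35 to 2.32 for UGT78D2 and -1.56 to 3.74 for psaA. Raising signals under the 40th percentile moved the dim genes most, as given in the report. What limits these results is the number of arrays, the unlike pairs and signals near background, and a difference that missed the threshold is not shown to be absent. The cause of the unlike pairs was not tested.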

Other observations

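Families of genes whose symbols share a stem, with 8 or more tested genes, were counted over the watered pairs, and 0 members of the 16 families were called in limma. The genes with the symbol stem CYP, grouped by symbol alone, had 8 of 16 higher and 3 lower in dor in both pairs. Their medians were 0.04 in pair 1 and 0.65 in pair 2. The UGT glycosyltransferase genes had 11 of 29 higher and 6 lower (medians 0.17 and 0.21). The SCPL genes, which encode serine carboxypeptidase-like proteins, had 2 of 16 higher and 7 lower (medians -0.03 and -0.63). The PRA genes had 1 of 10 higher and 5 lower (medians -0.16 and -0.48). The BGLU genes, beta-glucosidases, had 0 of 8 with the same sign in both pairs. Over all tested genes 24% were higher and 26.4% lower in both pairs.

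A pair of probe sets not listed in the probe table are given because their unadjusted p was the lowest in each direction among those that differ by at least 1 unit in both pairs. Probe set 247717_at read 313.7 in wild type and 1259.1 in dor in pair 1 and 268.1 and 1208.5 in pair 2. Both dor arrays were above both wild type arrays, as in 7.57% of all tested probe sets. Among the probe sets at least 1 unit higher in both pairs the share was 71.4%, so nothing is read from this. Its mean difference was 2.09 ± 0.31 in watered plants and 0.47 ± 0.31 under drought (adjusted p = 0.999 in limma for the first). Under drought its signals were between 16261.7 and 32385.0. Probe set 248744_at read 118.5 and 18.9 in pair 1 and 1955.4 and 82.6 in pair 2, a mean difference of -3.61 ± 0.59.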
